A study of Mus musculus with 4 samples.

Results

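The comparison described here sets Pla2g2f-/- keratinocytes against Pla2g2f+/+ keratinocytes after both had been differentiated with calcium. It rests on 2 of the 4 arrays of the study, 1 for each genotype, chosen by their titles. Keratinocytes, which form the layers of the epidermis, came from whole skin of newborn C57BL/6 mice after digestion with 0.05% collagenase A, and were grown for 3 days. They were then held for 48 h with or without 1 mM CaCl2. Each array carries RNA pooled in equal amounts from the cells of 6 mice of 1 genotype, so there is no replicate and no spread between mice, and every difference below is a description without a test. All 4 groups share the strain, the isolation and the culture, and the labels name no agent other than calcium. Cells cultured from whole skin can include dermal cells beside keratinocytes, which bears on several results below.

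Calcium is the usual switch that takes cultured keratinocytes from growth to terminal differentiation. In that program cells first make suprabasal keratins and desmosomal cadherins, and later the small proteins that are crosslinked under the membrane into the cornified envelope, the tough shell of the outermost skin layer. Many of those proteins are encoded side by side in the epidermal differentiation complex, which holds the small proline-rich (Sprr) and late cornified envelope (Lce) genes as well as loricrin and involucrin. The product of Pla2g2f belongs to the secreted phospholipases A2, which cut membrane phospholipids into fatty acids and lysophospholipids, and is found in the upper epidermis.

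A level below is the log2 fluorescence signal of a gene's brightest probe relative to the 75th percentile of its array, so 0 means a signal equal to that percentile. Levels of different probes are not comparable with each other, and only the same probe is followed across arrays. The 4 levels of a gene are always given in the order +/+ without calcium, +/+ with calcium, -/- without calcium and -/- with calcium. A difference is -/- minus +/+, both with calcium unless stated, on the log2 scale. Where a gene was not well above background on 1 array, the size of its difference is treated as a lower bound and is written as "at least". The dim value was raised to the array's lowest level well above background only where that was higher. Otherwise the bound is the plain measured difference, as for Spink2 and Prok2. Such bounds hold for this background correction only, and some were smaller with the alternative described next. Normexp background correction, an alternative that adds a fixed offset to every signal, gave smaller differences for dim probes, and its value is printed where it moved a named difference by over 1.5 times. The scanner software's own error for a difference was about 0.20 for a bright probe such as that of Krt5, and it covers the spot and not the culture.

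With calcium 21455 genes could be compared. Of these, 1405 (6.55%) were higher in -/- cells by 2-fold or more and 652 (3.04%) were lower by as much, including 253 and 138 bounds. Counts within a list are read against these shares, so that 1 or 2 members of a list of 20 past 2-fold are near what all genes gave. The median difference over all genes compared was -0.16, with an SD over genes of 0.71. The higher share of the genes past 2-fold was 68.3%. It became 89.7%, with 2388 genes higher and 273 lower, when all differences were set relative to the median of basal keratinocyte genes, a shift of 0.36 that put the median of all genes at 0.21. The 75th percentile of signal was 2638, 2737, 2889 and 3299 intensity units on the 4 arrays, in the order above. Of 39426 probes, 67.0%, 67.0%, 67.3% and 68.6% were well above background. The -/- array with calcium was thus the highest on both measures. Because the samples are bulk RNA, fewer cells of a type and less of an RNA per cell cannot be told apart.

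Pla2g2f itself was read by 1 probe on chromosome 4 (138306448 to 138306507, mm9). Its levels were -3.35, -3.04, -3.78 and -3.53, a difference with calcium of -0.49 with a scanner error of 0.22, or 1.41-fold lower in -/- cells. The probe was thus well above background on both -/- arrays. The labels do not say which part of the gene was deleted, so this probe cannot check the genotype. Among 186 genes whose probes lie within 5 Mb of it, 13 (6.99%) were past 2-fold higher and 18 (9.68%) past 2-fold lower, with a median of -0.25.

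Of all lists examined, those of the Sprr and Lce genes had the lowest medians. The sequences just upstream of some of them are shown first, because these neighbours differ in their upstream sequence. Each line gives the 250 bases before the annotated start from RefSeq (build GRCm38.p6), 5′ to 3′ on the gene's own strand. Capitals mark matches to the AP-1 motif TGANTCA, searched on both strands, and to the TATA motif TATAAA, searched on the gene's strand. Sprr2d lies at chr3:92338890-92339139 (plus strand), Sprr2e at chr3:92351893-92352142 (plus), Sprr2k at chr3:92432332-92432581 (plus), Lce3a at chr3:92926231-92926480 (minus) and Lce1d at chr3:92687211-92687460 (minus).
Sprr2d: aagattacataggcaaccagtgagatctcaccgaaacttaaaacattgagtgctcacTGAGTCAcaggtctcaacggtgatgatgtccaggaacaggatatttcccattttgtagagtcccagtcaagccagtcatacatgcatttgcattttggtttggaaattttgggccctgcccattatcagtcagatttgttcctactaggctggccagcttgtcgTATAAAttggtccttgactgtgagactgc
Sprr2e: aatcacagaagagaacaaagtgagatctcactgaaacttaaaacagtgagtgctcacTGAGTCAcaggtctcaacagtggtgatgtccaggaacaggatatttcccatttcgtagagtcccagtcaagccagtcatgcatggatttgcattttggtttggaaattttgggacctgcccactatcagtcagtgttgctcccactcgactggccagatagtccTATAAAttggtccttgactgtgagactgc
Sprr2k: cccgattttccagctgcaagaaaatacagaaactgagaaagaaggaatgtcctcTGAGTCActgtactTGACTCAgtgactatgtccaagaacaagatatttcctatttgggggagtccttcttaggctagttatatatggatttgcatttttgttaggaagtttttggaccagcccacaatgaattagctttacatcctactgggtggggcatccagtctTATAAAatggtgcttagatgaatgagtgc
Lce3a: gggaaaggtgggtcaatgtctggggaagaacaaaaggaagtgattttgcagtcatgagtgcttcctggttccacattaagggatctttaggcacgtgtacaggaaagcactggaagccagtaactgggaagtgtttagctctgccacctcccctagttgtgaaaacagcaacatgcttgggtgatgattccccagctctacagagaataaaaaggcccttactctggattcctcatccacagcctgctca
Lce1d: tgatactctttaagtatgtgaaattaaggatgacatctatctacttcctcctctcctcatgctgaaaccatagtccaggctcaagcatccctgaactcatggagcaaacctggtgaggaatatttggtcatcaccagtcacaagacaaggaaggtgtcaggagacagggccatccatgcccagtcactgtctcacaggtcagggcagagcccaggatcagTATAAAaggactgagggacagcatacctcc

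Counted from the start, the AP-1 motif begins at position -193 in Sprr2d and Sprr2e, and at -196 and -182 in Sprr2k. The TATA motif begins at -29 in these 3 genes and at -30 in Lce1d. Sprr2k, with both motifs, and Lce3a, with neither, differed by -3.02 and -3.01. Over the families, 6 of 7 Sprr2 promoters in the table held the AP-1 motif against 0 of 12 Lce1 and 0 of 6 Lce3 promoters, and 6.75% of 32851 promoters of the same length. The TATA motif was in 6 of 7 Sprr2, 2 of 12 Lce1 and 0 of 6 Lce3 promoters against 7.59% of all. Letter motifs of grainyhead, STAT, interferon, KLF and ETS type were searched as well. Grainyhead, STAT and interferon motifs were in 0 of 7 Sprr2 promoters, against 0.116%, 7.02% and 2.98% of all, so 0 is near those shares. The STAT motif was in 1 of 12 Lce1 promoters and 0 of 6 Lce3 promoters. Grainyhead and interferon motifs were in 0 of 12 and 0 of 6. The KLF motif was in 1 of 7 Sprr2, 1 of 12 Lce1 and 0 of 6 Lce3 promoters against 28.1% of all. The ETS motif was in 4 of 7 Sprr2, 10 of 12 Lce1 and 3 of 6 Lce3 promoters against 64.1% of all. The upstream sequences of Sprr2d and Sprr2e are identical at 220 of 250 aligned positions (88%), so their matches are not independent. All of these are matches of letters only, and binding at them was not measured.

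Sprr2 proteins are small proline-rich precursors of the cornified envelope. Of 9 Sprr2 genes compared, which include the pseudogene Sprr2j-ps, 8 were at least 2-fold lower in -/- cells with calcium. All 9 lay below 0, and the median of -3.02 corresponds to 8.14-fold. Without the pseudogene the median lies between the differences of Sprr2k, -3.02, and Sprr2f, -2.21. With no filter on dim genes the family median was -2.21. Sprr2d, the gene with the lowest difference of those measured on both arrays, had levels of -1.50, 2.31, -2.91 and -1.63. Its level was high on the calcium-treated +/+ array only, and the -/- array with calcium was 15.4-fold lower than it. Sprr2e (levels -4.34, -0.01, -5.27 and -3.84) was 14.2-fold lower. Sprr2g (-0.13, 3.86, -0.44 and 0.67) was 9.10-fold lower. In these 3 genes the -/- level with calcium stayed at least 3 log2 units under the +/+ level.

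Sprr2k had levels of -2.61, -0.57, -3.37 and -3.59, so that the -/- arrays with and without calcium were near each other. Sprr2f (-4.22, -3.69, -5.67 and -5.90) was 4.64-fold lower, with a difference of -2.21 that was -1.38 with normexp, and Sprr2h (4.59, 6.36, 2.33 and 4.27) 4.28-fold lower. Sprr2i (-2.96, -0.19, -3.56 and -2.20) was 4.04-fold lower. The pseudogene Sprr2j-ps was 12.9-fold lower. Sprr2a2, at 5.85, 5.81, 5.80 and 5.56, was the exception and differed by -0.25. The 60-base probes of such near-identical genes may bind each other's transcripts, so values of single family members are less certain than the family's.

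Other small proline-rich genes did not share this. Sprr1a, an early cornified envelope precursor, had levels of 1.25, 5.31, 2.39 and 5.26, and its 2 calcium arrays differed by -0.05. Sprr1b (1.85, 4.32, 1.70 and 3.78) differed by -0.54. Sprr4 went the other way, with levels of -4.86, -4.08, -3.14 and -2.18, and was 3.72-fold higher in -/- cells. Over the whole Sprr list of 11 genes compared, 7 were lower, 1 was higher and the median was -2.10. Of the other 4 genes in the list, Sprr2a1, Sprr2b and Sprr3 were not well above background on either calcium array and Sprr2a3 had no probe under that name.

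Lce proteins are late cornified envelope components, made late in the program. All 19 Lce genes compared lay below 0, with 15 at least 2-fold lower, 0 higher and a median of -1.42. The Lce3 subfamily lay lowest, with 6 of 6 past 2-fold and a median of -2.35, or 5.09-fold. Lce3a had levels of -5.31, -0.53, -5.58 and -3.54 and was 8.07-fold lower. Lce3f (-4.53, -0.52, -4.61 and -3.39) was 7.27-fold lower and Lce3e, which was not well above background in +/+ cells without calcium (-5.53, -0.66, -4.24 and -3.21), was 5.86-fold lower. Lce3b, Lce3d and Lce3c were 4.43-fold, 4.37-fold and 4.25-fold lower. In all 6 genes the +/+ array with calcium held the highest of the 4 levels.

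The Lce1 subfamily showed a smaller difference. Among 13 compared, 9 were at least 2-fold lower and the median was -1.24, or 2.37-fold. Lce1d (-3.10, 1.75, -1.44 and -0.19) was 3.84-fold lower, Lce1g (-2.19, 1.71, -1.41 and -0.06) 3.40-fold and Lce1e (-4.15, 0.16, -2.26 and -1.30) 2.76-fold. The smallest differences were those of Lce1f, at -0.68, and Lce1k, at -0.65. Without calcium the order of the genotypes was the opposite for much of the family: the median genotype difference was 0.85 for Lce1 and 0.74 for Lce3, and -0.94 for Sprr2. In the +/+ cells the median calcium response was 4.10 for Lce1 genes and 4.70 for Lce3 genes, and in the -/- cells it was 1.31 and 1.65.

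**Figure D1:**
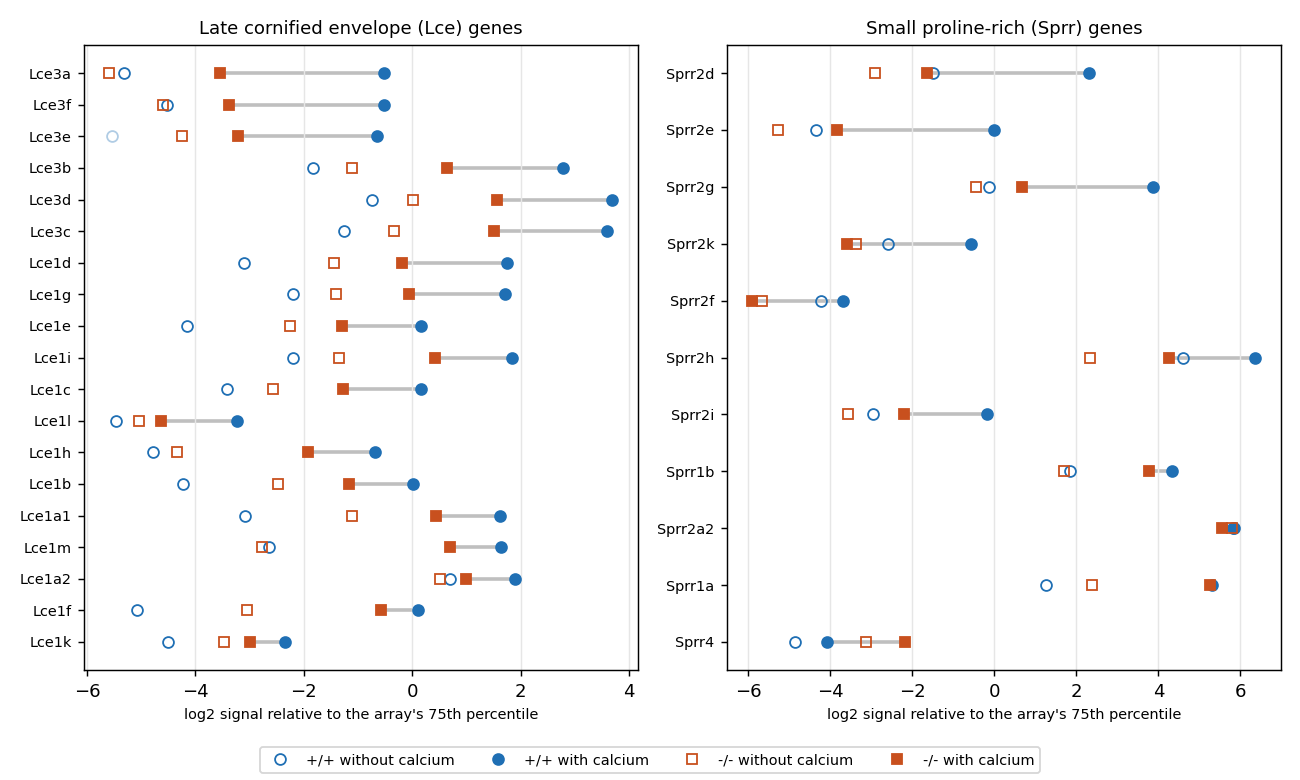
Level of each Lce gene (left) and Sprr gene (right) on the 4 arrays, as log2 signal relative to the array's 75th percentile; circles are +/+ and squares -/- cells, filled with calcium and open without, and pale symbols are not well above background. The grey line joins the 2 calcium arrays, and for all 19 Lce genes the filled square lies left of the filled circle.

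These genes are neighbours on chromosome 3. Between positions 91884206 and 93275887 (mm9) 59 genes or targets were compared, of which 28 were at least 2-fold lower and 1 was higher, with a median of -0.91. Of the 28, 23 were Lce or Sprr genes. The 28 others in the interval included 5 lower and 0 higher genes and had a median of -0.46. Among them were loricrin (Lor) and Kprp, lower, and involucrin (Ivl) at -0.46, Crnn at 0.09 and repetin (Rptn) at 0.40. Over the interval the low values were thus mostly, and not all, those of the Lce and Sprr2 families.

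Other late differentiation genes were mixed. Of 25 compared, 7 were at least 2-fold lower, 4 were higher and the median was -0.69. Lor, the major cornified envelope protein, had levels of -1.35, 2.71, -1.01 and 1.36 and was 2.54-fold lower. Tgm1, the transglutaminase that crosslinks the envelope, had levels of -3.72, 0.64, -3.75 and -0.47 and was 2.17-fold lower. Kprp, a keratinocyte proline-rich protein (-3.24, 1.55, -2.09 and 0.10), was 2.73-fold lower and cornifelin, Cnfn (-2.82, 3.22, -2.91 and 2.05), 2.25-fold. In each of these the calcium-treated -/- array lay above both untreated arrays and below the calcium-treated +/+ array. Nccrp1 was 3.25-fold, the peptidoglycan-binding protein Pglyrp3 3.04-fold and Lelp1 2.18-fold lower. Setting the differences relative to basal keratinocyte genes left 3 lower members in this list, with Lor, Tgm1, Cnfn and Lelp1 then under 2-fold.

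The higher members were led by sciellin, Scel, a cornified envelope precursor, at -6.79, -1.12, -4.68 and 0.61 and 3.33-fold higher in -/- cells. Corneodesmosin, Cdsn, an adhesion protein of cornified cells, had levels of 0.90, 4.23, 1.61 and 5.27 and was 2.06-fold higher. Padi4 was 2.85-fold and Tgm5 2.29-fold higher, and each fell under 2-fold in 1 alternative (the mean of the gene's probes for Padi4, normexp background correction for Tgm5). The remaining 14 members, among them Casp14 at -0.69, Crct1 at -0.70, Tchh at -0.76, Cysrt1 at -0.77, Tchhl1 at -0.85, periplakin (Ppl) at -0.77, envoplakin (Evpl) at -0.47, Krt2 at -0.51, Calm4 at -0.37, Tgm3 at -0.35, Asprv1 at -0.18, Padi1 at 0.14, Padi3 at -0.03 and Rptn at 0.40, lay within 2-fold. Filaggrin had no probe under its name, and Flg2, Hrnr and Calm5 were not well above background on either calcium array.

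Genes of early differentiation differed less. Among 19 compared, 2 were higher, 1 was lower and the median was -0.24. Krt10 (levels -2.00, -1.54, -2.07 and -1.87) and Krt1, the suprabasal keratins, differed by -0.34 and -0.12. Dsg1a, a desmosomal cadherin, was not well above background without calcium in either genotype (-8.13, -5.65, -7.72 and -2.33) and was 10-fold higher in -/- cells with calcium. That difference of 3.33 was 2.15 with normexp. The related cadherin Dsc1 (-5.97, -4.25, -6.44 and -2.78) was 2.77-fold higher, and came under 2-fold with normexp, at 0.96. Dsg1b and Dsg1c differed by 0.79 and 0.44. Grhl3, a transcription factor of barrier formation, had levels of 0.18, 3.12, -0.16 and 1.80 and was 2.49-fold lower. Sbsn, Krtdap, Grhl1 and Hopx lay between -0.19 and 0.35.

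Basal and junction genes stayed within 2-fold. For 20 basal and hemidesmosome genes the counts were 0 higher and 0 lower, with a median of -0.36. Trp63, the master transcription factor of the basal layer, had levels of 3.88, 3.60, 3.04 and 2.68 and a difference of -0.92. Krt5 (7.22, 7.29, 7.01 and 6.72) differed by -0.57 and Krt14 (6.58, 6.59, 6.11 and 6.06) by -0.53. All 30 genes of tight junctions, desmosomes and gap junctions compared were also within 2-fold, with a median of -0.28, the farthest being Marveld3 at -0.95 and occludin (Ocln) at -0.90.

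**Figure D2:**
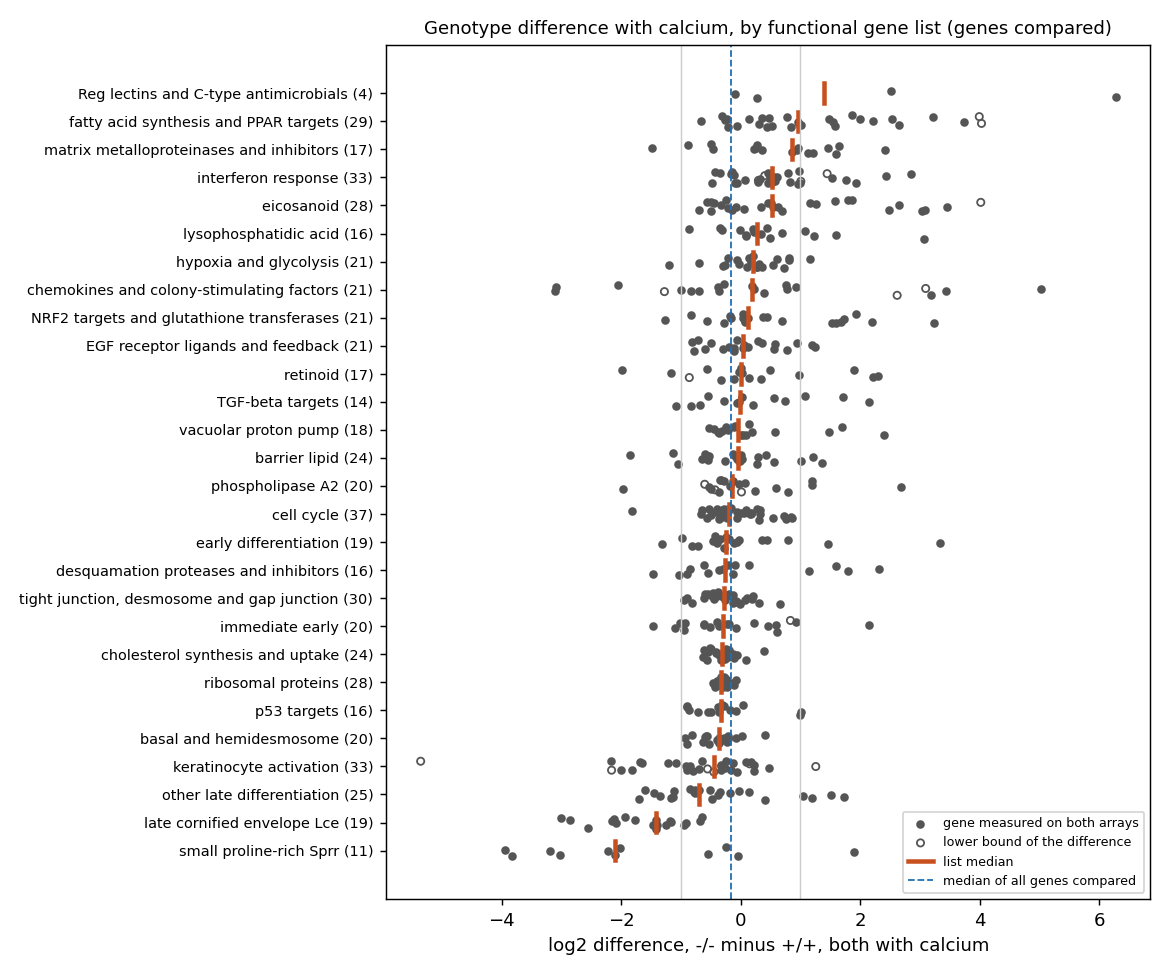
Genotype difference with calcium (log2, -/- minus +/+) for each gene of 28 functional lists; filled points were measured on both arrays, open points are bounds, orange bars are list medians and the dashed line is the median of all genes compared, -0.16. The Sprr and Lce medians, -2.10 and -1.42, lie farthest below it, and those of the Reg lectins and of fatty acid synthesis and PPAR targets, 1.39 and 0.95, farthest above.

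Genes of keratinocyte activation, the alarm program of wounded or inflamed epidermis, leaned lower: of 33 compared, 9 were at least 2-fold lower, 1 was higher and the median was -0.45. Of the 33, 6 are bounds: 31 were well above background on the +/+ array with calcium and 29 on the -/- array. Bounds that entered through the +/+ array alone, among them Il1f6 and S100a7a, could not have come out higher. Those that entered through the -/- array alone could not have come out lower. Il1f6, which encodes the cytokine IL-36 alpha, had levels of -5.64, -1.0, -7.38 and -6.83. It was well above background on both +/+ arrays and on neither -/- array, and was at least 40.9-fold lower in -/- cells with calcium. On the log2 scale that bound is -5.35, and the difference was -3.93 with normexp. Il1f9, which encodes IL-36 gamma (-5.85, -4.01, -7.08 and -5.69), was 3.21-fold lower. Il1f8, for IL-36 beta, differed by -0.16, and Il1f5, for the IL-36 receptor antagonist, by -0.80. The family was therefore uneven.

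Il33, an alarmin of the IL-1 family, had levels of -0.64, 0.13, -2.82 and -2.05, with both -/- arrays below both +/+ arrays, and was 4.52-fold lower. Slpi, a secreted protease inhibitor (3.81, 4.91, 1.98 and 2.91), was 3.98-fold lower. The calcium-binding alarmin subunits S100a8 (1.57, 1.05, -0.86 and -0.77) and S100a9 (0.38, 1.07, -0.84 and -0.58) were 3.54-fold and 3.13-fold lower. For S100a7a the bound was 4.47-fold, which fell under 2-fold with normexp background correction. Defb1 was 2.32-fold and Il1a 2.11-fold lower. The activation keratins Krt6a, Krt6b, Krt16 and Krt17 lay between -0.85 and -0.27, and Saa3 and Saa1 at 0.23 and 0.17. Setting differences relative to basal keratinocyte genes left 5 members of this list lower, with a median of -0.087.

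Chemokines and colony-stimulating factors split by kind, with 5 of 21 higher, 4 lower and a median of 0.20, a sign that turned in 3 of the alternatives. The lower genes were ligands and growth factors of neutrophils. Cxcl5 had levels of -1.12, -0.45, -3.16 and -3.56 and was 8.63-fold lower, and Csf3, which encodes G-CSF (-3.0, -2.27, -5.72 and -5.35), was 8.48-fold lower, with a difference of -3.08 that was -2.25 with normexp. Cxcl1 (-1.54, -0.97, -2.58 and -3.02) was 4.13-fold lower and Cxcl2 at least 2.42-fold. For Cxcl5, Csf3 and Cxcl1, which were well above background on all 4 arrays, both -/- arrays lay below both +/+ arrays.

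The higher chemokines were CC-type ligands. Ccl3 had levels of -3.91, -5.56, -1.78 and -0.53 and was 32.6-fold higher, Ccl9 (-2.57, -3.27, -1.26 and 0.17) 10.8-fold and Ccl8 (0.53, -0.52, 2.34 and 2.67) 9.13-fold. Ccl4 was at least 8.56-fold and the eosinophil attractant Ccl11 at least 6.15-fold higher. Outside the list, Ccl12 was at least 25.0-fold higher. With normexp the differences were 3.73 for Ccl3 in place of 5.02, 1.73 for Ccl4 in place of 3.10 and 3.14 for Ccl12 in place of 4.64. Macrophages are a known source of Ccl3 and Ccl4, and macrophage markers were higher on the same array, with values given below. Their part in the CC chemokine values was not tested. Ccl2, Ccl7, Ccl5, Cxcl10 and Cxcl11 stayed within 2-fold.

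**Figure D3:**
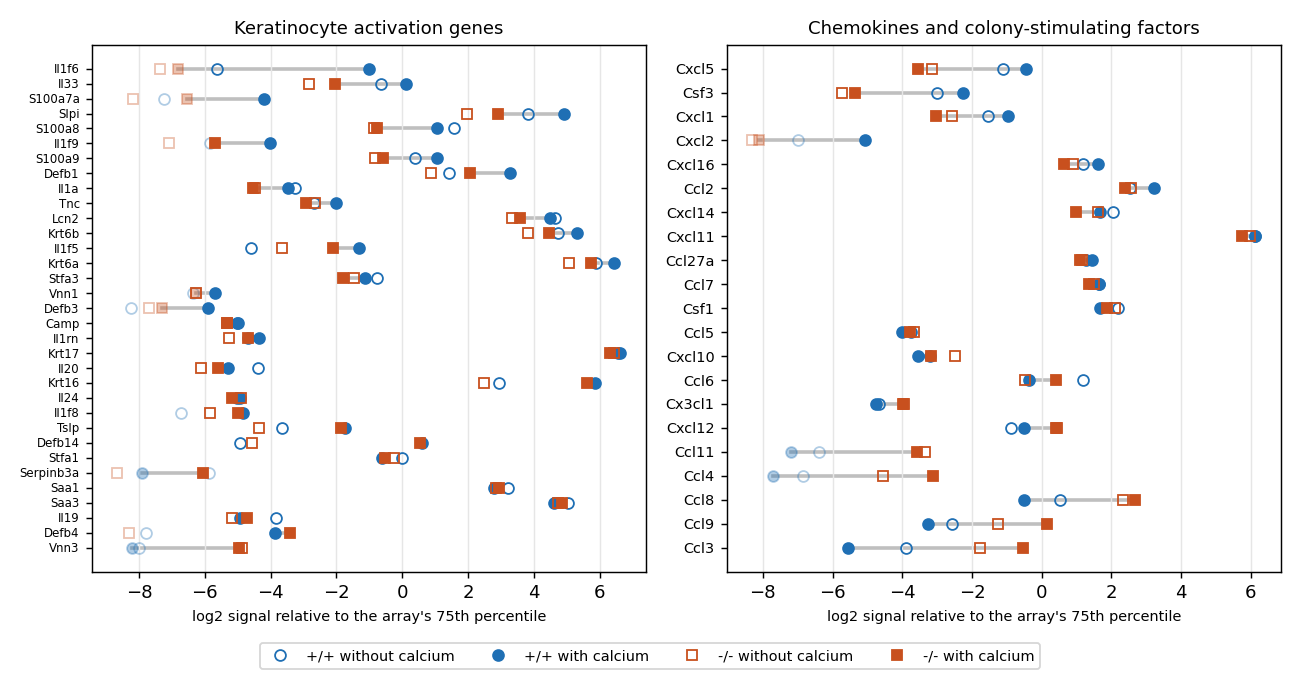
Level of each keratinocyte activation gene (left) and each chemokine or colony-stimulating factor (right) on the 4 arrays, as log2 signal relative to the array's 75th percentile; circles are +/+ and squares -/- cells, filled with calcium and open without, and pale symbols are not well above background. Genes run from the lowest genotype difference with calcium at the top (Il1f6 and Cxcl5) to the highest at the bottom (Vnn3 and Ccl3).

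Other genes with the lowest differences belong to no list. Ptx3, a soluble pattern-recognition protein, had levels of 0.05, 0.86, -2.42 and -2.26 and was 8.68-fold lower. Rab6b, a Rab family GTPase (0.20, -0.09, -2.64 and -3.20), was 8.60-fold lower and Wfdc2, a whey acidic protein-type inhibitor (-0.21, -0.33, -2.91 and -3.30), 7.89-fold. In these 3 genes both -/- arrays lay more than 2 log2 units below both +/+ arrays. Slc6a14, an amino acid transporter, was not well above background without calcium and had levels of -1.23 and -4.33 with it in +/+ and -/- cells, an 8.57-fold difference. Next to Il1f6 in size among the bounds were Krtap3-2, Spink2, Prok2 and Esp6, at least 8.57-fold, 5.64-fold, 5.40-fold and 5.38-fold lower. Their differences with normexp were -1.65, -1.32, -1.39 and -1.28.

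Proteases of desquamation, which release the outermost cells, included higher and lower members: 4 of 16 were at least 2-fold higher and 2 lower, with a median of -0.25. Cst6, the cystatin that holds lysosomal proteases in check, had levels of -2.27, 2.47, 0.26 and 4.78 and was 4.96-fold higher. The kallikreins Klk6 (-4.16, 1.00, -1.54 and 2.79), Klk5 (-3.91, -0.48, -2.57 and 1.12) and Klk7 (-3.57, 1.30, -1.72 and 2.44) were 3.46-fold, 3.03-fold and 2.20-fold higher. On both treatments these 4 genes were higher in the -/- than in the +/+ cells. Klk11 was 2.75-fold and the membrane protease Prss8 2.05-fold lower.

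Genes of barrier lipids numbered 24, with 3 higher, 3 lower and a median of -0.05. Aloxe3, the epidermal lipoxygenase of the hepoxilin pathway, had levels of -0.77, 1.14, -1.63 and -0.70 and was 3.59-fold lower. Nipal4 and the ceramide desaturase Degs2 were 2.20-fold and 2.08-fold lower. Sptlc3, a serine palmitoyltransferase subunit, was 2.58-fold and Lipm 2.30-fold higher. These last 4 fell under 2-fold with normexp background correction. Acer1, a ceramidase of differentiating cells, was 2.01-fold higher.

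Smaller sets held single large values. Of 18 vacuolar proton pump subunits 3 were higher and 0 lower: Atp6v0a4 (levels -7.77, -3.98, -6.67 and -1.59) was 5.26-fold, Atp6v1c2 (-4.18, -1.33, -4.03 and 0.36) 3.22-fold and Atp6v0d2 2.80-fold higher, around a median of -0.05. Of 17 retinoid genes 3 were higher and 2 lower. Aldh1a3, a retinaldehyde dehydrogenase that makes retinoic acid, had levels of -8.25, -2.40, -5.57 and -0.10 and was 4.92-fold higher, Aldh1a1 was 4.65-fold and Dhrs3 3.73-fold higher, and the binding protein Crabp1 (1.79, 1.54, -0.22 and -0.45) was 3.96-fold lower. Reg1, a secreted C-type lectin, had the largest difference of any gene measured on both arrays and named here. Its levels were -4.21, -4.22, -0.85 and 2.06, a 77.6-fold difference, with a higher level with calcium than without in -/- cells only. Reg3g, an antimicrobial lectin, was 5.72-fold higher. The differences of Reg1 and Reg3g, 6.28 and 2.52, were 5.57 and 1.86 with normexp.

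In the phospholipase A2 list, which holds enzymes of several kinds and the receptor Pla2r1, 3 of 20 compared were higher, 1 was lower and the median was -0.15. Pla2g7, the plasma-type PAF acetylhydrolase, had levels of -1.43, -1.30, 0.82 and 1.38 and was 6.39-fold higher. Pla2g2e, the neighbouring secreted enzyme of the same group (-1.05, -0.93, 0.25 and 0.26), was 2.29-fold higher, a difference of 1.20 with calcium beside 1.30 without. Pla2g4d, a cytosolic enzyme of keratinocytes (-5.19, -4.00, -6.94 and -5.97), was 3.92-fold lower, a difference of -1.97 that was -1.18 with normexp. The receptor Pla2r1 was 2.28-fold higher, under 2-fold with normexp background correction. The widely expressed cytosolic Pla2g4a differed by -0.02, Pla2g6 by -0.36 and Pla2g4b by -0.29.

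The remaining members were Pnpla8 at 0.79, Pla2g15 at 0.60, Plaat3 at 0.24, Pla2g2d at 0.08, Pafah2 at -0.13, Pafah1b2 at -0.18, Pnpla6 at -0.34, Pla2g12a at -0.35 and Pafah1b3 at -0.53. Bounds under 2-fold were those of Pla2g1b, Pla2g3 and Pla2g12b. Pla2g2a, Pla2g2c, Pla2g5, Pla2g10, Pla2g4c, Pla2g4e and Pla2g4f were not well above background on either calcium array. Thus 7 of the 27 genes on the list gave no difference.

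Downstream lipid mediator genes were higher in part. In the eicosanoid list, which covers prostaglandin and leukotriene enzymes and receptors, 11 of 28 were higher, 0 lower and the median was 0.52. Tbxas1, thromboxane synthase, was at least 16.2-fold higher, a bound of 4.02 that was 2.65 with normexp. Alox5ap, the activating protein of 5-lipoxygenase, had levels of -2.97, -3.56, -0.65 and -0.10 and was 11-fold higher, and Alox5 itself was 3.46-fold higher. Ephx2, soluble epoxide hydrolase, and the prostaglandin receptor Ptger3 were 8.53-fold and 8.19-fold higher, and Hpgds, the hematopoietic prostaglandin D synthase, 5.59-fold. The prostaglandin enzymes of keratinocytes did not share this: Ptgs1 differed by -0.33, Ptgs2 by -0.70 and Ptges by -0.14. Tbxas1, Alox5ap, Alox5 and Hpgds are known as genes of macrophages and mast cells, whose markers were higher on the same array, and the part of those cells in these values was not tested.

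For lysophosphatidic acid, 4 of 16 genes were higher and 0 lower, with a median of 0.28. Enpp2, autotaxin, the secreted enzyme that makes this lipid from lysophospholipids, had levels of 1.49, 0.71, 4.28 and 3.79 and was 8.41-fold higher. Agpat2, which adds the second acyl chain in glycerolipid synthesis, was 3.02-fold, the lipid phosphatase Plpp3 2.34-fold and the receptor Lpar4 2.12-fold higher. Adipocytes are a known source of Enpp2 and Agpat2, and the part of their markers, below, was not tested.

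Markers of cells other than keratinocytes were the widest group of higher values. All 11 mast cell markers compared were at least 2-fold higher in -/- cells with calcium, with a median of 3.62, or 12.3-fold. The median was 2.34 with normexp, and 1 of the 11, Mrgprb2, is a bound that entered through the -/- array alone. Mcpt4, a mast cell chymase, had levels of -4.41, -5.12, 0.26 and 0.40 and was 45.7-fold higher, and carboxypeptidase Cpa3 (-2.72, -3.56, 1.27 and 1.39) was 30.9-fold higher. Both -/- arrays were high and both +/+ arrays low. The difference of Mcpt4, 5.52, was 4.49 with normexp. The summed linear signal of the mast cell markers was 1.69, 1.82, 12.5 and 12.5 times the array's 75th percentile on the 4 arrays. Ms4a2 was not well above background on either calcium array.

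In the macrophage and myeloid list 16 of 18 were higher, 0 lower and the median was 3.34, or 10.1-fold. Of the 18, 3 are bounds that entered through the -/- array alone and could not have come out lower. Cd5l, a secreted scavenger protein of macrophages, had levels of -4.69, -4.07, 0.50 and 0.99 and was 33.3-fold higher. The mannose receptor Mrc1 (-2.12, -2.57, 0.75 and 1.99) was 23.5-fold and the complement subunit C1qa (-2.86, -3.04, 0.40 and 1.39) 21.5-fold higher. Aif1, the macrophage protein Iba1, was at least 17.7-fold higher. With normexp the differences of Cd5l and Aif1 were 4.42 and 2.41, in place of 5.06 and 4.15. Cd14 differed by 0.23 and Itgam by -0.89, so the list was not uniform. Its summed signal was 10.6, 8.42, 37.2 and 52.0 on the 4 arrays, higher with calcium than without in -/- cells and the reverse in +/+ cells.

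All 11 adipocyte markers compared were higher, with a median of 3.00, or 7.99-fold. Adiponectin, Adipoq, had levels of -0.21, -0.84, 3.08 and 2.87 and was 13.1-fold higher, and Car3, a carbonic anhydrase abundant in fat, 28.1-fold. The summed signal was 60.2, 39.4, 195 and 159, and leptin (Lep) was not well above background on either calcium array. Fibroblast markers were higher to a lesser degree, with 13 of 19 past 2-fold and a median of 1.27. Col3a1 (4.05, 3.94, 5.16 and 5.45) was 2.85-fold, Col6a2 3.33-fold and periostin (Postn) 3.29-fold higher. The summed fibroblast signal was 247, 228, 386 and 404.

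By contrast the 10 keratinocyte markers were within 2-fold, with a median of -0.32 and a summed signal of 393, 423, 324 and 307. The labelled cell type was therefore borne out by Krt5, Krt14, Trp63 and Perp on all 4 arrays, beside clear signal from dermal and blood-derived cell markers. Pericyte and smooth muscle markers were higher in 5 of 9, skeletal muscle in 5 of 12, Schwann cell in 5 of 10, sebaceous gland in 4 of 8, endothelial in 3 of 12 and erythroid in 2 of 5, with 0 lower except 1 sebaceous gene. Of these counts, Des (on both muscle lists) and Acta1 (2.02-fold) came under 2-fold with quantile scaling, median scaling and normexp, and Abcc9, Cdh19, Vwf and Elovl3 with normexp. Bounds that entered through the -/- array alone made up 3 of 5 erythroid and 2 of 9 pericyte and smooth muscle genes. They also made up 1 of 12 endothelial and 1 of 8 sebaceous genes. Of the 12 skeletal muscle genes 2 are bounds, with 11 genes well above background on each calcium array. Median differences were 1.00 for pericyte and smooth muscle, 0.35 with normexp, and 0.59 for skeletal muscle, between 0.03 and 0.97 over the alternatives. The 4 higher sebaceous genes were Plin5, Elovl3, Fabp4 and Scd1. Fabp4 is also on the adipocyte list and Scd1 on that of fatty acid synthesis and PPAR targets. Egr2, 1 of the 5 higher Schwann cell genes, is also on the immediate early list. Melanocyte markers were higher in 1 of 11, Kit, which is also a mast cell marker. Of Merkel and simple epithelial markers 1 of 6 was higher and 2 were lower, and of hair follicle markers 2 of 14 each way, with Krt79 5.97-fold and Lgr5 4.43-fold higher, the latter a difference of 2.15 that was 1.37 with normexp. With normexp Sox2, the higher Merkel marker and a bound, came under 2-fold at 0.50. So did the lower genes Krt19 and Lgr6, at -0.79 and -0.90.

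Langerhans cell and T cell lists gave few values. Of 8 Langerhans and MHC class II genes 2 were higher (Cd86 and Itgax, both bounds), 1 was lower and the median was -0.09, while the defining markers Cd207 and H2-Aa were not well above background on either calcium array. Itgax and the lower gene, Ccr7, came under 2-fold with normexp, at 0.67 and -0.62, and Cd86 was 1.89. For T and natural killer cells 1 of 7 was higher, Gzmb, which came under 2-fold with normexp, and Cd3d, Cd3g, Cd2, Cd8a and Klrb1c were not well above background. Of 6 neutrophil genes compared the 2 lower ones were S100a8 and S100a9, which keratinocytes also make. Mpo, Ltf, Ngp, Cxcr2 and Retnlg were not well above background.

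**Figure D4:**
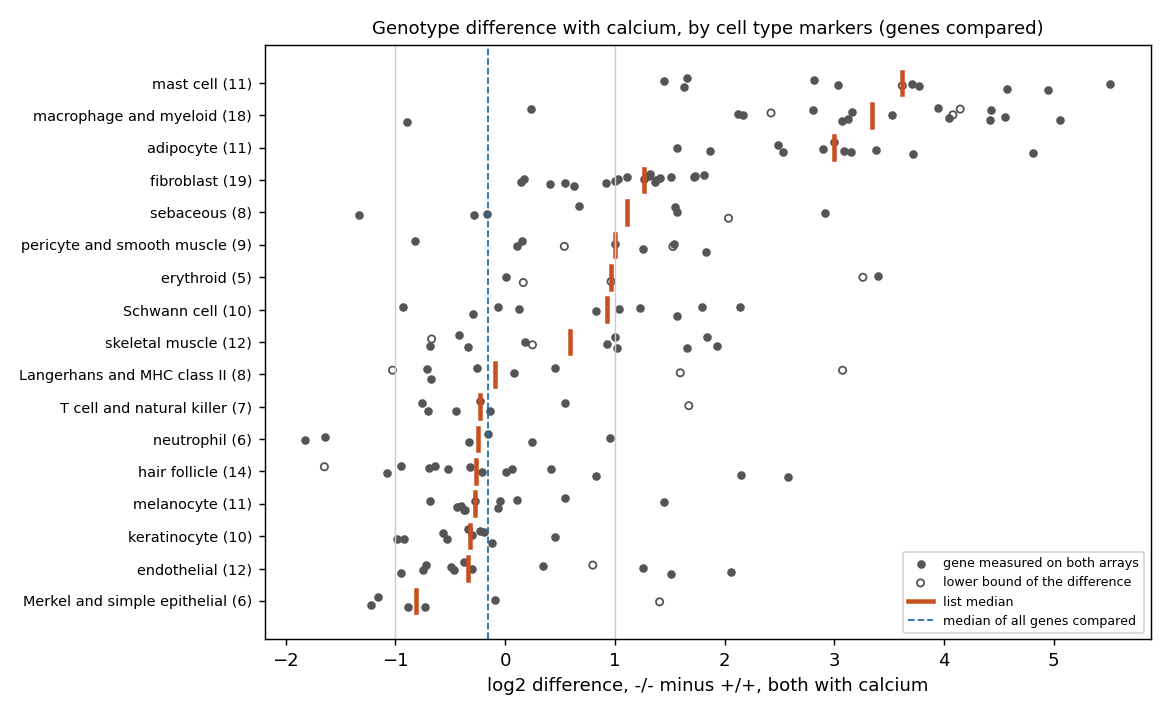
Genotype difference with calcium (log2, -/- minus +/+) for each marker of 17 cell types; filled points were measured on both arrays, open points are bounds, orange bars are list medians and the dashed line is the median of all genes compared, -0.16. Mast cell, macrophage and adipocyte medians lie at 3.62, 3.34 and 3.00, and the keratinocyte median at -0.32.

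Several further genes with the largest differences are named by size alone. Cyp2e1, a cytochrome P450, had levels of -1.31, -1.93, 2.86 and 2.85 and was 27.6-fold higher. Slco2b1, an organic anion transporter, was 24.7-fold and the coagulation factor subunit F13a1 22.2-fold higher. Among the bounds, Cyth4 was at least 29.7-fold and Nell1 at least 22.5-fold higher. With normexp Slco2b1, Cyth4 and Nell1 differed by 4.0, 3.54 and 2.86. For all 5 of these the -/- array without calcium was high as well.

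Some genes of fatty acid metabolism were higher on the -/- array. In the list of fatty acid synthesis and PPAR targets 13 of 29 were higher, 0 lower and the median was 0.95, or 1.94-fold. Acacb, acetyl-CoA carboxylase beta, had levels of -0.98, -1.88, 1.56 and 1.34 and was 9.35-fold higher, the fatty acid transporter Cd36 6.31-fold and the nuclear receptor Pparg 5.77-fold. Pck1 and Thrsp were at least 16.4-fold and 15.9-fold higher, and differed by 2.60 and 2.62 with normexp. The lipogenic enzymes Fasn, Elovl6 and Fads1 lay within 2-fold, at 0.47, 0.35 and 0.52. Pparg and Lpl are also on the adipocyte list, and the part of adipocytes in this group was not tested. All 24 cholesterol synthesis and uptake genes stayed within 2-fold, with a median of -0.31.

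Interferon response genes were higher in 7 of 33 and lower in 0, with a median of 0.52, and 25 lay above 0. Of the 33, 4 are bounds that entered through the -/- array alone and could not have come out lower. Ifi27l2a had levels of -0.12, -0.87, 2.36 and 1.97 and was 7.19-fold higher, and Oas2, an antiviral oligoadenylate synthetase (-3.99, -4.43, -2.32 and -1.99), 5.41-fold. The difference of Oas2, 2.44, was 1.84 with normexp. Oasl1 was 3.81-fold, Psmb9 3.40-fold and Rsad2 2.88-fold higher, of which Psmb9 with the mean of its probes and Rsad2 with normexp fell under 2-fold. The median without calcium was 0.56, nearly the same.

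In the list of NRF2 targets and glutathione transferases 7 of 21 were higher and 1 lower, and all 7 were transferases. Gsta3 (-2.71, -2.98, -0.08 and 0.25) was 9.43-fold, Mgst1 4.62-fold and Gstm2 3.83-fold higher. The lower gene was Txnrd1, thioredoxin reductase and a classical NRF2 target, by 2.41-fold. Matrix metalloproteinases and their inhibitors were higher in 6 of 17, among them Mmp27 5.32-fold and Mmp2 3.13-fold, and lower in 1, Mmp3, by 2.78-fold. Fibroblast, macrophage and adipocyte markers, with the counts above, were higher on the same array, and their part in the metalloproteinase and transferase values was not tested.

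Proliferation genes stayed within 2-fold with 1 exception. Of 37 cell cycle genes compared 0 were at least 2-fold higher, 1 was lower and the median was -0.19. The lower one was Ube2c (-1.65, -1.08, -2.93 and -2.90), 3.53-fold, while Mki67 differed by 0.84 and Cdk1 by 0.55. Ribosomal protein genes (28 compared) had a median of -0.32 with none past 2-fold. Among p53 targets 1 of 16 was past 2-fold, Sesn1 by 2.01-fold, which fell under it in 3 alternatives, and in the hypoxia list Bnip3 was 2.24-fold higher and Adm 2.28-fold lower.

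Of 20 immediate early genes, 1 was higher and 3 were lower, with a median of -0.30. The lower ones were all subunits of AP-1: Fosl1 had levels of -0.91, -0.27, -1.98 and -1.75 and was 2.77-fold lower, Fos (1.36, 2.01, 0.67 and 0.91) 2.15-fold and Fosl2 (3.40, 3.98, 2.76 and 2.97) 2.02-fold. Fosl2 fell under 2-fold with quantile scaling, and Fos and Fosl2 when differences were set relative to basal keratinocyte genes. Junb differed by -0.95. Egr2 was 4.41-fold higher. EGF receptor ligands and feedback genes held 2 higher (Spry4 and Areg) and 0 lower of 21, and both came under 2-fold with normexp. Among TGF-beta targets Tgfbi was 4.44-fold higher and Inhba 2.12-fold lower, the latter under 2-fold with quantile scaling and when differences were set relative to basal keratinocyte genes.

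The same subtraction can be made for the cultures without calcium. It shares no array with the comparison above, though each genotype's cells come from the same 6 mice. Without calcium 988 of 21238 genes (4.65%) were past 2-fold higher in -/- cells and 912 (4.29%) past 2-fold lower, with a median of -0.18. These include 161 and 390 bounds, beside 253 and 138 with calcium, so more of the lower genes without calcium were dim on 1 array. Over the 20597 genes compared in both, 849 were higher on both treatments, which is 62.9% of the genes higher with calcium and 88.8% of those higher without. For lower genes the overlap was 226, or 39.4% of those lower with calcium and 28.6% of those lower without. Past 2-fold in opposite directions were 10 of the genes higher and 8 of the genes lower with calcium.

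Mast cell, adipocyte and macrophage markers were in the higher group on both treatments, with medians without calcium of 2.82, 2.81 and 1.96. Keratinocyte activation genes had a median of -0.56 without calcium and 8 of 28 lower. Il33 differed by -2.18 on both treatments, Cxcl5 by -3.11 with and -2.04 without and Csf3 by -3.08 and -2.72. Of the Lce genes 0 were lower and 7 were higher without calcium, with a list median of 0.83. The Sprr list had 3 lower, 2 higher and a median of -0.60. The list medians of activation genes and of mast cell, adipocyte and macrophage markers thus lay on the same side of 0 on both treatments, and that of the Lce genes did not, though Lce3a, Lce3f, Lce1m and Lce1a2 were below 0 on both.

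**Figure D5:**
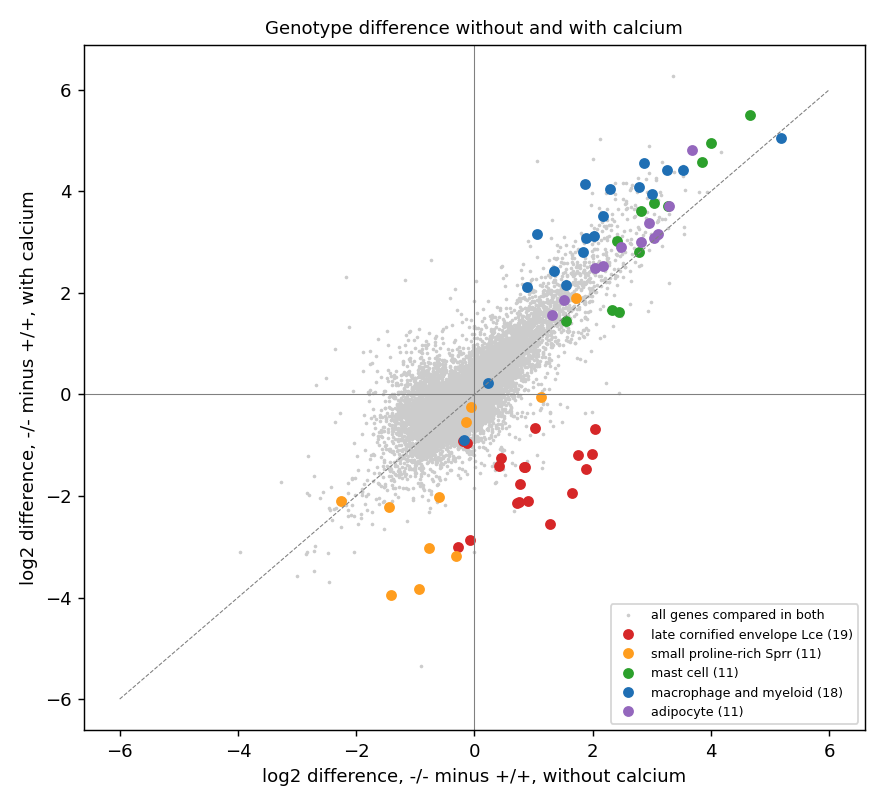
Genotype difference (log2, -/- minus +/+) of each gene without calcium (horizontal) and with calcium (vertical), with 5 lists in colour; the dashed line marks equal differences. Mast cell, macrophage and adipocyte genes lie mostly at the upper right, and the Lce genes lie below 0 with calcium and mostly above 0 without.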

How the data were processed

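Gene expression was measured on 4 one-colour 44K mouse arrays (Agilent), 1 per group, from 200 ng of pooled RNA each, per the labels. The deposited signals are an intensity from Agilent Feature Extraction 11.5.1.1, per the submitters' processing notes, background-subtracted and detrended within each array, per the file headers. A further table for the series holds a ratio, which the authors made by dividing each signal by its array's 75th percentile. The largest relative deviation of the table from such a ratio was 5.8e-04 over 44397 spots.

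Outlier spots (105 to 116 per array) were dropped, log2 was taken and each array was centred on the log2 of the 75th percentile of its 43020 non-control spots. Spots of a probe were averaged. The median SD of log2 signal over repeated spots was about 0.06 on each array. For 27508 of 39429 probes the symbol came from the accession's entry in RefSeq (GRCm38.p6), 404 had an older symbol updated, 3544 already had a current symbol and 7973 kept the file's name. The brightest probe stood for its gene. Of 1666 genes past 2-fold and measured on both arrays, 339 had further measured probes, and in 44 of these a probe had the opposite sign. Genes well above background on either calcium array were compared. A dim value was replaced, before subtraction, by the array's lowest level well above background where that was higher (-6.21 for +/+ and -6.35 for -/- with calcium). Probe positions are those of mm9 as in the files. All 4 arrays share 1 slide and 1 scan.

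Genes were named by rule: per direction the 12 largest measured differences and 5 largest bounds, up to 5 members per list, and all members of the Lce, Sprr, late differentiation and phospholipase A2 lists. Others named for a role were chosen after their values were seen. A few genes that the rule names are not reported here. The 45 lists (28 functional, 17 of markers) hold 847 genes, of which 754 were compared. The members and lists were chosen with earlier results of these data known. The steps were tested on simulated arrays. Alternatives were normexp background correction (offset 50), quantile and median scaling, the mean of probes, the authors' table of ratios, requiring both arrays to be well above background, and no filter. A scaling to basal keratinocyte genes was chosen after seeing the data. Software was Python 3.11.15, numpy 2.4.6, pandas 2.3.3, R 4.3.3 and limma 3.58.1.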

Additional observations from a re-analysis of the deposited data

Results flagged for a closer look

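Some cornified envelope genes lay at least 2-fold lower in -/- cells with calcium and at least 2-fold higher in -/- cells without it. With 1 array per group the difference between the treatments was not tested. Lce3e differed by -2.55 with calcium and by at least 1.29 without. Lce1d gave -1.94 and 1.65, Lce1e -1.46 and 1.90, and Lce1b -1.18 and 1.75. Lce1a1 gave -1.17 and 1.98, and Kprp, the keratinocyte proline-rich protein, -1.45 and 1.14.

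The family medians had opposite signs in the same way. The median of all Lce genes was -1.42 with calcium and 0.83 without, that of Lce1 -1.24 and 0.85, and that of Lce3 -2.35 and 0.74. Across background correction, scaling and probe choices the Lce1 median without calcium lay between 0.66 and 1.02 and with calcium between -1.28 and -1.13, and the Lce3 median between 0.60 and 0.75 and between -2.37 and -2.16.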

How the results depend on the processing

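With 1 array per group, no difference can be set against a spread between cultures, and pooling hides the spread between mice. No paired analysis was possible because each group has 1 array. Levels under about -6 are near background, where bounds depend on the limit used. None of the 185 named genes past 2-fold changed sign under any alternative. Under the alternatives other than the scaling to basal keratinocyte genes, which was chosen after seeing the data, 29 of them came under 2-fold in at least 1, namely 24 with normexp, 5 with quantile scaling, 3 with median scaling and 3 with the mean of probes. The authors' value table gave the same counts, 1405 and 652.

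Genes at least 2-fold higher numbered 946 with normexp, 2145 with no filter and 2388 with scaling to basal keratinocyte genes. Genes at least 2-fold lower numbered 373 with normexp, 1346 with no filter and 273 with scaling to basal genes, which put the median of all genes at 0.21. The median of the Lce list was -1.06 with that scaling. For the Sprr list it was -1.88 with normexp, -1.29 with no filter and -1.74 with basal scaling. For keratinocyte activation it was -0.35 with normexp, -0.33 over genes well above background on both arrays, -0.35 with no filter and -0.087 with basal scaling. The macrophage median was 2.87, 3.16, 3.53 and 3.70 in the same order. Basal scaling brought 20 named genes under 2-fold, among them Grhl3, Lor, Tgm1, Cnfn, Fos, Fosl2, Lce1h, Lce1b and Lce1a1. The causes were not tested, other than that dropping the filter adds dim genes.

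Scaling to basal keratinocyte genes put the basal list at 0 and turned every list median between -0.36 and 0 positive, among them early differentiation (0.12), desquamation (0.11), junctions (0.082), cell cycle (0.17), phospholipase A2 (0.21), cholesterol (0.052), immediate early genes (0.067), p53 targets (0.028) and keratinocyte markers (0.045). Under the other alternatives the sign of a list median turned for EGF receptor genes (mean of probes), chemokines (mean of probes, both arrays, no filter), TGF-beta targets, proton pump and ribosomal genes (quantile scaling) and retinoid genes (normexp, both arrays, no filter).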
